A study of Mus musculus with 60 samples.

Results

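Serotonin receptors were examined as a family of 10 genes (Htr1a, Htr1b, Htr1f, Htr2a, Htr2c, Htr3a, Htr4, Htr5a, Htr6 and Htr7), taken by their symbols from RNA-seq tables of 21999 genes. All 10 symbols had a row, and the tables held 14 serotonin receptor genes in all. Of the 10, 9 were called between prefrontal cortex and striatum and 10 in each of the other pairs of regions, beside 69.9%, 59.3% and 66.4% of all genes called. By reads per length, Htr2a led in the prefrontal cortex, Htr1b in the striatum, and Htr1a and Htr2c together in the hippocampus. None of them passed the test in any comparison of genotype or diet. Htr2c in the prefrontal cortex came nearest. Its level in knockout mice fed little vitamin B6 did not overlap with that in wild-type mice on the normal diet. That difference did not pass either (adjusted p = 0.121 by edgeR), and 1713 of 13223 genes had an unadjusted p under 0.05 there. How many of all genes separated those groups without overlap was not counted.

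Serotonin is released in the forebrain by axons of the raphe nuclei, and it acts there on receptors that nearly all couple to G proteins. Htr1a, Htr1b, Htr1f and Htr5a encode receptors that couple to inhibitory Gi/o proteins. Htr2a and Htr2c encode receptors that couple to Gq and phospholipase C, and Htr4, Htr6 and Htr7 encode receptors that couple to Gs and raise cyclic AMP. Htr3a encodes a subunit of the serotonin-gated ion channel, the exception in the family. Vitamin B6 bears on serotonin because its active form is the cofactor of Ddc, the enzyme that makes serotonin from its precursor.

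The libraries came from 20 mice of 4 groups of 5: wild-type (WT) or Glo1 knockout (KO), each fed from 8 to 12 weeks of age a diet that held either 1.4 mg of vitamin B6 per 100 g (normal diet) or 5 µg per 100 g (lacking diet). Vitamin B6 is given in the labels as 58.25 to 78.09 ng/µl for the 10 mice on the normal diet. For the 10 mice on the lacking diet it is 2.25 to 5.63 ng/µl. Every mouse gave 1 poly(A)-selected library from each of the prefrontal cortex (Pfc), the striatum (Str) and the hippocampus (Hip), 60 in all. Glo1 encodes glyoxalase 1, which detoxifies methylglyoxal. The labels name neither the strain nor the knockout allele, and batch 1 holds every KO library and batch 2 every WT library: genotype and batch cannot be told apart.

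Library totals ran from 7640047 to 13928265 counts, with RNA integrity numbers of 7.6 to 9.3, and 3 counts were worth 0.215 to 0.393 CPM (counts per 1000000 of the library total). Glo1 had 299 to 734 counts in the 30 WT libraries and 0 to 10 in the 30 KO libraries. The 7 striatal markers summed to 6189 to 7934 CPM in the striatum and to at most 177 CPM elsewhere; 7 hippocampal markers were each highest in the hippocampus, and 6 of 7 cortical markers in the prefrontal cortex. One tissue stood out within a region: 10 choroid plexus markers (Ttr, Kl and others) summed to 38.0 to 1853.5 CPM in the hippocampal libraries, against 19.7 to 32.2 CPM in the striatum and 4.02 to 8.95 CPM in the prefrontal cortex. In 7 hippocampal libraries, from all 4 groups, this sum was over 200 CPM; the hippocampal comparisons of Htr2c, which choroid plexus is known to express, are given with and without them. Markers of the serotonin neurons themselves were near 0: 4 raphe markers summed to at most 3.19 CPM in any library. In tissue RNA, fewer cells of a type and less RNA per cell cannot be told apart.

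The DNA just upstream of the receptors that lead each region is shown first, because their levels set the regions apart. RefSeq promoter windows on GRCm38.p6 (mm10) were at hand for 8 of the 10 receptors. Each line runs 5′ to 3′ in the direction of the gene and stops before the gene's start in both RefSeq and GENCODE M21. Htr1b and Htr2c lead in the striatum, Htr2a in the prefrontal cortex and Htr1a, beside Htr2c, in the hippocampus. The windows are chr9:81633833-81634082 on the minus strand for Htr1b and, on the plus strand, chrX:146962263-146962512 for Htr2c, chr14:74640624-74640839 for Htr2a and chr13:105443443-105443638 for Htr1a. Capitals mark a GC box, as GGGCGG or as its reverse complement CCGCCC.
Htr1b: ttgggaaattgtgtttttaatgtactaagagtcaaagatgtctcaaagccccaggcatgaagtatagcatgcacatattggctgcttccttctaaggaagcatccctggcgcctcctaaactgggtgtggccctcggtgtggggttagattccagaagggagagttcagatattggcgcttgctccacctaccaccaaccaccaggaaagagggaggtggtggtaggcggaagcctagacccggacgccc
Htr2c: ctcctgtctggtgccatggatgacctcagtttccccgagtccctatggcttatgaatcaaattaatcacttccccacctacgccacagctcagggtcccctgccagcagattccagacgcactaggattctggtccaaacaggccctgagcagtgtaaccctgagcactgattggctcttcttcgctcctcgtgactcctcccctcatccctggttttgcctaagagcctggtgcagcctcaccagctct
Htr2a: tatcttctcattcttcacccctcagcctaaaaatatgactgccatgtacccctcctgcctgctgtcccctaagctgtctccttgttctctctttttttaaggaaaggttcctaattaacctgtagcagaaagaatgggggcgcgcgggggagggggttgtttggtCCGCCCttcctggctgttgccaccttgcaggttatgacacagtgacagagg
Htr1a: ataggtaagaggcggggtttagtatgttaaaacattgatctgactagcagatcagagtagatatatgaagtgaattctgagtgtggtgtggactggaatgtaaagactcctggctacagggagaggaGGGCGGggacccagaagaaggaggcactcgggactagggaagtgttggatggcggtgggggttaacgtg
The GC box, GGGCGG on either strand, was found in the 250-base RefSeq windows of Htr1a, Htr2a and Htr6, 3 of 8 receptors. It was found in 32.7% of 32851 promoter windows of all genes. Of the searched windows, 54 bases for Htr1a, 34 for Htr2a and 70 for Htr1f lie inside the gene of GENCODE M21. Another window of Htr6, wholly inside its gene, held none of the motifs. The TATA box letters TATAAA were found in 0 of the 8 and in 12.4% of all windows. Htr7 alone held TGACG (17.8% of all windows) and GCGTGGGCG (0.536%), which overlap there by a shared base. Its window had 82% G and C and 41 CG steps, against medians of 52.4% and 6 over all genes. Of the 250 bases of that window, 147 lie inside the Htr7 gene of GENCODE M21. The 103 bases before that gene hold neither motif. These matches are letters only. The windows of Htr1b, Htr2c, Htr1f and Htr5a held none of the searched motifs.

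Region differences were tested with edgeR's quasi-likelihood test in a fit of all 60 libraries, with Benjamini-Hochberg adjustment over 13930 genes. Regions differ in most genes: 69.9% of all genes were called between prefrontal cortex and striatum (34% higher in the prefrontal cortex, 35.9% in the striatum), 59.3% between prefrontal cortex and hippocampus (29.1% and 30.2%) and 66.4% between striatum and hippocampus (33.6% and 32.9%). The receptors called were 9, 10 and 10 of 10, so that being called says little of a receptor beside that background. Prefrontal cortex exceeded striatum for 6 receptors and lay under it for 3, and both comparisons with the hippocampus were split 5 to 5. In size, the receptors' median absolute log2 fold change was 1.47, 0.87 and 1.37 in these comparisons, beside 0.30, 0.21 and 0.26 over all genes.

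**Figure D1:**
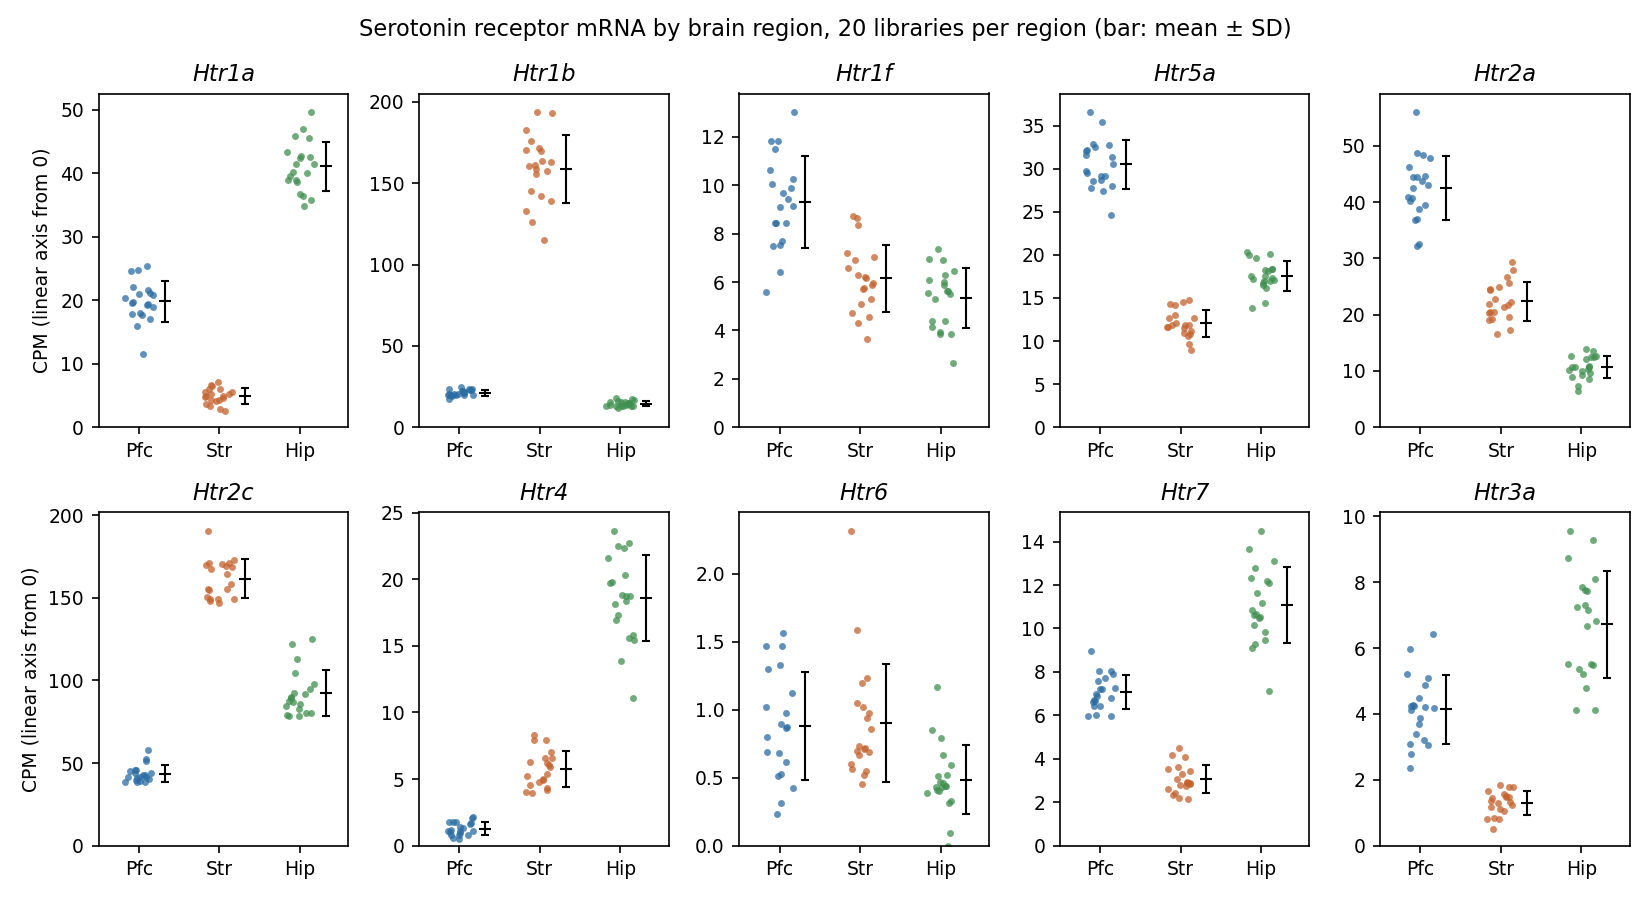
Level of each receptor in CPM (linear axes from 0) in the 20 libraries of each region; points are libraries, and the bar beside them is the mean ± SD. Htr1b and Htr2c are highest in the striatum, Htr1a, Htr4, Htr7 and Htr3a in the hippocampus and Htr2a, Htr5a and Htr1f in the prefrontal cortex, while Htr6 averages under 1 CPM in each.

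Among the Gi/o-coupled receptors, Htr1b had the widest range. This receptor sits on axon terminals, where it restrains release. It measured 115 to 194 CPM in the striatum (median 161), 17.4 to 24.9 CPM in the prefrontal cortex (median 20.7) and 11.6 to 17.9 CPM in the hippocampus (median 14.3). The striatal libraries stood above all others without overlap, and prefrontal cortex and hippocampus overlapped in range although the prefrontal level was higher in 20 of 20 mice. Relative to the hippocampus, striatal Htr1b was higher by 3.54 on the log2 scale (SE 0.06, adjusted p = 3.632e-51 by edgeR). Relative to the prefrontal cortex, it was higher 7.63-fold (adjusted p = 9.455e-48). Htr1b lies on chromosome 9 (81628291 to 81633828, minus strand, mm10), and the antisense gene D430036J16Rik overlaps its exons; 15.6% of its 75-base stretches also occur in other genes, that one among them. Whether reads were counted by strand is not given in the sources used here, and the antisense gene has no row of its own in the tables, so that reads of the pair cannot be told apart.

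Htr1a ran the opposite way. This receptor, which opens potassium channels and damps firing on cell bodies and dendrites, measured 34.8 to 49.6 CPM in the hippocampus (median 40.8), 11.6 to 25.4 CPM in the prefrontal cortex (median 19.7) and 2.53 to 7.09 CPM in the striatum (median 4.93). No library of one region reached the range of another. The hippocampal level was 7.90-fold that of the striatum (log2 difference of striatum from hippocampus -2.98, SE 0.09, adjusted p = 1.477e-38 by edgeR) and 1.99-fold that of the prefrontal cortex (adjusted p = 4.433e-18).

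Htr1f and Htr5a, the remaining Gi/o-coupled receptors, were highest in the prefrontal cortex. Htr5a measured 24.6 to 36.6 CPM there (median 30.2), 13.8 to 20.4 CPM in the hippocampus (median 17.4) and 8.98 to 14.8 CPM in the striatum (median 11.8). The prefrontal libraries lay above all others, and hippocampus and striatum overlapped slightly while the hippocampal value was higher in 20 of 20 mice. Prefrontal Htr5a was 2.49-fold that of the striatum (adjusted p = 3.131e-32 by edgeR). Htr1f, known as a target of migraine drugs, had the flattest profile of the receptors called in all 3 comparisons: 5.57 to 13.0 CPM in the prefrontal cortex (median 9.28), 3.64 to 8.71 in the striatum (median 6.07) and 2.64 to 7.35 in the hippocampus (median 5.57). All 3 ranges overlapped. Its striatal level exceeded the hippocampal one in 11 of 20 mice, with a log2 difference of 0.29 (SE 0.11, adjusted p = 0.0149 by edgeR). That call was lost without mouse 273 (0.22, adjusted p = 0.0659) and without the 7 hippocampal libraries high in choroid plexus markers (0.23, adjusted p = 0.0996). Over all alternatives other than leaving out 1 mouse at a time its adjusted p ran from 0.00104 to 0.258.

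The Gq-coupled pair peaked in different regions. Htr2a, the receptor on cortical pyramidal cells through which hallucinogens act, measured 32.2 to 56.0 CPM in the prefrontal cortex (median 42.8), 16.6 to 29.3 CPM in the striatum (median 21.8) and 6.40 to 13.9 CPM in the hippocampus (median 10.7). Its 3 regions formed separate steps with no overlap. The prefrontal level was 4.14-fold that of the hippocampus (log2 2.05, SE 0.07, adjusted p = 1.542e-34 by edgeR).

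Htr2c, whose transcript is edited by adenosine deaminases, measured 147 to 191 CPM in the striatum (median 162), 78.2 to 125 CPM in the hippocampus (median 88.4) and 38.4 to 57.9 CPM in the prefrontal cortex (median 42.3). Its regions did not overlap either, and the striatum came first. The striatal level was 3.78-fold the prefrontal one (log2 difference of prefrontal cortex from striatum -1.92, SE 0.05, adjusted p = 2.887e-41 by edgeR). Against the hippocampus, striatal Htr2c was higher by 0.89 on the log2 scale in all libraries and by 1.00 without the 7 libraries high in choroid plexus markers. Prefrontal Htr2c differed from hippocampal Htr2c by -1.02 in all libraries and by -0.91 without those 7, the hippocampus being higher.

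Of the Gs-coupled receptors, Htr4 and Htr7 were highest in the hippocampus by CPM. Htr4, which favours transmitter release and plasticity, measured 11.1 to 23.6 CPM in the hippocampus (median 18.7), 3.94 to 8.31 CPM in the striatum (median 5.65) and 0.495 to 2.16 CPM in the prefrontal cortex (median 1.17), where it had 5 to 25 counts a library. No ranges overlapped. The prefrontal level lay 3.79 log2 units under the hippocampal one (log2 difference -3.79, SE 0.12, adjusted p = 1.916e-36 by edgeR); on log2(RPKM + 1), which compresses low levels, it was -1.96. Htr7, a receptor tied to circadian phase and mood, measured 7.13 to 14.5 CPM in the hippocampus (median 10.8), 5.96 to 8.96 CPM in the prefrontal cortex (median 6.95) and 2.15 to 4.48 CPM in the striatum (median 2.89). The hippocampus overlapped with the prefrontal cortex, yet the hippocampal library was the higher one in 20 of 20 mice. Hippocampal Htr7 was 3.39-fold the striatal level (adjusted p = 9.964e-28 by edgeR).

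Htr6, known from drug work on cognition, had few counts everywhere: 0.230 to 1.57 CPM in the prefrontal cortex, 0.455 to 2.31 CPM in the striatum and 0 to 1.17 CPM in the hippocampus, from 0 to 29 counts a library. One hippocampal library had 0 counts, which allows up to 3 counts, and many values lie close to that floor. Prefrontal cortex and striatum did not pass the test (log2 difference -0.10, 95% interval -0.51 to 0.31, adjusted p = 0.674 by edgeR). Both exceeded the hippocampus, by 0.86 (adjusted p = 0.000869) and 0.96 (adjusted p = 0.000156), with overlapping ranges. Htr3a, which cortical interneurons from the caudal ganglionic eminence are known to express, measured 4.12 to 9.56 CPM in the hippocampus (median 6.98), 2.35 to 6.41 CPM in the prefrontal cortex (median 4.18) and 0.520 to 1.83 CPM in the striatum (median 1.34). The striatal libraries lay under all others, and hippocampus exceeded prefrontal cortex in 19 of 20 mice. Hippocampal Htr3a was 4.80-fold the striatal level (adjusted p = 1.466e-24 by edgeR). The gene Gm32335, with no row in the tables, spans exons of Htr3a, but 0 of 2080 stretches of 75 bases in Htr3a occur in another gene's transcripts.

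Among the members of the family outside the 10, Htr1d was striatal, with 79 to 243 counts there against 0 to 12 in the prefrontal cortex and 0 to 4 in the hippocampus (5.29 log2 units below the striatum in the prefrontal cortex, log2 difference -5.29, adjusted p = 1.216e-38 by edgeR). Htr5b, a close relative of Htr5a, had 16 to 36 counts in the hippocampus, 0 to 10 in the prefrontal cortex and 0 to 4 in the striatum. Htr2b and Htr3b had at most 4 counts in any library and were not tested.

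Levels can be compared between receptors only per length, for which the deposited RPKM (reads per kilobase of gene length and 1000000 reads) were used. In the prefrontal cortex Htr2a led with 14.3 ± 1.91 RPKM (SD, n = 20), above Htr5a at 5.68 ± 0.529 in all 20 libraries and with no overlap. Below it Htr2c (4.67 ± 0.549), Htr1b (4.48 ± 0.412) and Htr1a (4.47 ± 0.721) did not differ beyond their spread, Htr1b exceeding Htr1a in 10 of 20 libraries. Htr6 (0.377 ± 0.169) and Htr4 (0.274 ± 0.105) came last.

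In the striatum 2 receptors carried most of the family's RPKM: Htr1b held 49.9% of the summed mean at 33.7 ± 4.41 RPKM (SD, n = 20) and Htr2c 25.7% at 17.3 ± 1.25. Htr2a followed at 7.52 ± 1.17, and these ranges were separate down to Htr1f (2.45 ± 0.556), below which neighbours overlapped. In the hippocampus Htr2c (9.88 ± 1.49) and Htr1a (9.26 ± 0.878) overlapped, Htr2c being higher in 11 of 20 libraries. Without the 7 libraries high in choroid plexus markers their order turned, with Htr1a at 9.29 ± 0.986 and Htr2c at 9.10 ± 0.554 (SD, n = 13), Htr1a being higher in 7 of 13. Then came a gap to Htr4 (3.99 ± 0.690), and Htr4, Htr2a, Htr5a, Htr7, Htr3a and Htr1b lay between 3.07 and 3.99 RPKM with overlapping neighbours. The sum over the 10 receptors was 67.5 ± 4.93 RPKM in the striatum, 42.0 ± 2.78 in the prefrontal cortex and 41.9 ± 2.15 in the hippocampus. The deposited length of Htr2a, 2971 bases, is shorter than its 5606 exonic bases in GENCODE M21. Rescaling to M21 lengths changed the length only, and reads were not counted again over the M21 exons. If the deposited counts leave out reads from the added bases, the rescaled Htr2a values are too low. With M21 lengths Htr2a kept the highest prefrontal mean at 7.57 ± 1.01 RPKM (SD, n = 20). Its range then overlapped with that of Htr5a, which it exceeded in 19 of 20 libraries. Its striatal mean became 3.98, overlapping with Htr1f, and in the hippocampus it dropped from place 4 to place 9. The sums over the 10 receptors became 63.8 ± 4.73 RPKM in the striatum, 35.1 ± 2.05 in the prefrontal cortex and 39.8 ± 2.00 in the hippocampus.

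**Figure D2:**
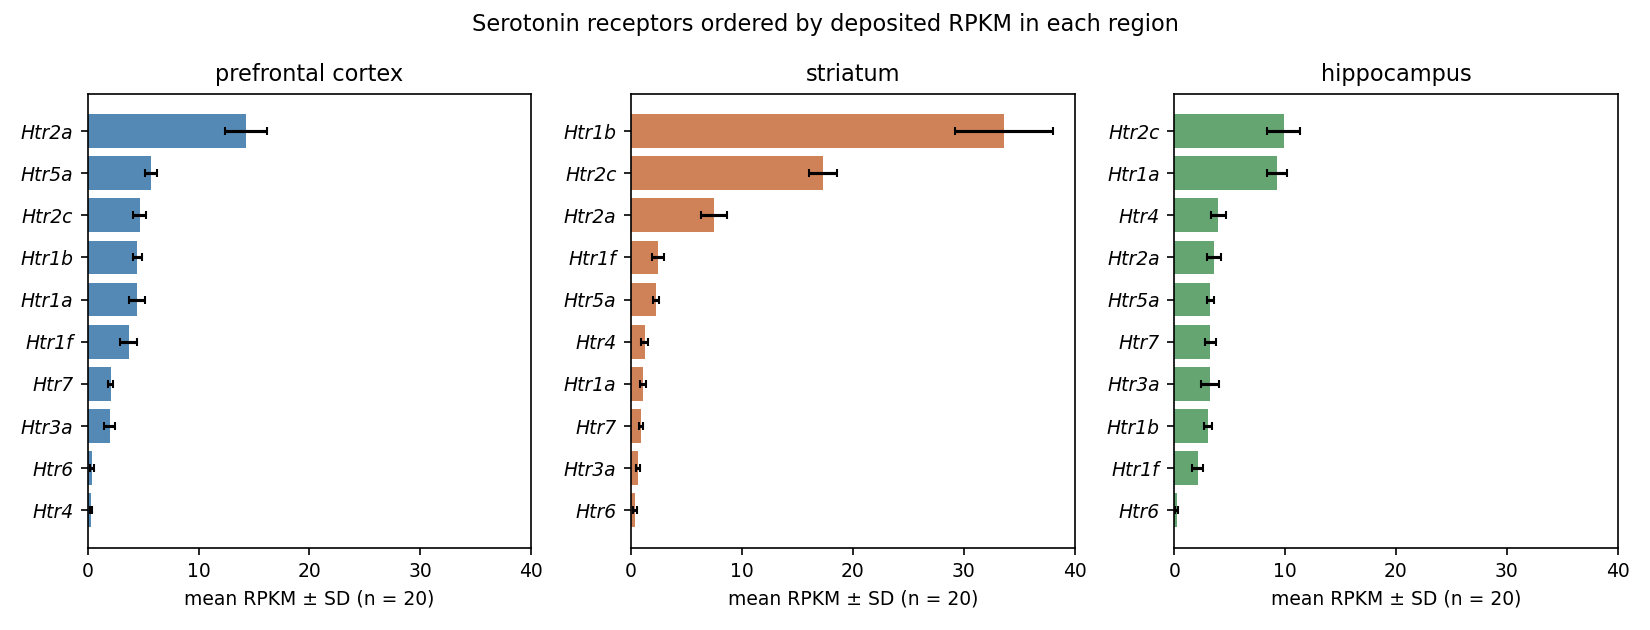
Mean deposited RPKM of the 10 receptors in each region, in falling order; bars start at 0 and error bars are the SD over 20 libraries. Htr2a leads in the prefrontal cortex, Htr1b and Htr2c in the striatum, and Htr2c and Htr1a, whose ranges overlap, in the hippocampus. With GENCODE M21 lengths and the same deposited counts, the mean of Htr2a falls to 7.57 in the prefrontal cortex.

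Receptors that shared a regional profile were compared over the 60 libraries on log2 CPM. The 3 regions form separate clusters, so these correlations mostly restate the regional means and are given as a description. Among the 45 pairs Pearson's r ran from -0.96, for Htr1a and Htr1b, to 0.94, for Htr1a and Htr7. Htr1b and Htr2c had r = 0.74. After the mean of each of the 12 groups was taken out, every pair lay between -0.32 and 0.34. Counting error in receptors of few counts brings such values nearer to 0. They therefore cannot show whether receptors move together within a group.

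The genes most like a receptor over the 60 libraries were Gnal, Ivns1abp and Cyld for Htr1b (r = 0.99 each), and Foxo1, Ap1s2 and Lmo7 for Htr2c (r = 0.97). For Htr2a they were Lamp5, Garnl3 and Pcsk2 (r = 0.96), and for Htr1a Sertm1, Slc39a6 and Ppm1e (r = 0.98). Gnal encodes the stimulatory G protein of striatal neurons, and Lamp5 is a marker of upper cortical layers and of a class of interneurons. Htr4 was most like Ust (r = 0.97), St18 and Myo5b, and Htr7 most like C530008M17Rik (0.96), Pcdh19 and Btbd3. Htr5a was most like Car10 (0.96), Rims1 and Efhd2, and Htr3a most like Arhgef25 (0.95), Tub and Stum. Htr1f was most like Mapk9 (0.85), Kcnv1 and Ncam2, and Htr6 only loosely like any gene, Tm9sf4 (0.68), Dact2 and Cacna2d4 coming first.

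With group means taken out, other genes led. Htr2c was most like Kl (r = 0.69) and Cab39l (0.68), and Kl, klotho, is one of the choroid plexus markers. Htr1b was most like Egr1 (0.64) and Fosl2 (0.63), both activity-induced transcription factors. Htr6 was most like Adora2a (0.70), the adenosine receptor of striatal neurons of the indirect pathway, followed by Plekhh3 (0.66), and Htr1f again most like Mapk9 (0.69), then Rprd2 (0.64). Htr1a was most like Ipcef1 and Trhde, Htr2a most like Selo and Plbd2 and Htr3a most like Camkk1 and Tef, at 0.62 to 0.66. Htr4 (Fzd6, Rbbp5), Htr5a (Mpped1, Gnptg) and Htr7 (Marf1, Slco1a4) had lower leading values, 0.53 to 0.58. These are the highest of all genes tested, over libraries that share mice and preparation, and no more than a description.

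Genotype and diet were then compared within each region by edgeR's quasi-likelihood test on its 20 libraries, with Benjamini-Hochberg adjustment over all genes tested (13223, 13311 and 13393 in prefrontal cortex, striatum and hippocampus). Htr6 passed the low-count filter in the prefrontal cortex and striatum only, and the other 9 receptors passed it in every region. In 232 tests of a receptor, from 8 comparisons per region, 0 were called and 9 had an unadjusted p under 0.05. Chance alone gives such a p in 1 in 20 tests, and 9 of 232 is no more than that. Over all genes, p was under 0.05 for 1867, 769 and 568 genes in KO against WT over both diets, in the same order of regions. For the diet over both genotypes it was so for 434, 407 and 288 genes. DESeq2 and limma likewise called 0 receptors. Few genes were called at all. For KO against WT over both diets the share of all genes called was 0.673%, 0.203% and 0.164% in prefrontal cortex, striatum and hippocampus. On the normal diet it was 0.121%, 0.0601% and 0.0299%, and on the lacking diet 0.234%, 0.128% and 0.0672%. For lacking-diet KO mice against normal-diet WT mice it was 0.28%, 0.0826% and 0.0149%. For the diet, in either genotype or over both, and for the interaction of genotype and diet, 0% of genes were called in each region. A receptor count of 0 is thus near the background everywhere.

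The intervals bound what could have been missed. For the 9 receptors other than Htr6, the log2 fold changes of the comparisons other than the interaction lay between -0.61 and 0.62, with a median standard error of 0.13, and the widest 95% intervals reached from -1.33 to 1.33, both for Htr4 in the prefrontal cortex. For Htr6 they lay between -0.86 and 0.68 with a median standard error of 0.38. The interaction of genotype and diet lay between -0.33 and 0.72 for the 9 receptors, with a median standard error of 0.20. The point estimates of Htr1a in the hippocampus lay between 0.02 and 0.13 in the 7 comparisons other than the interaction. Those of Htr5a in the striatum lay between -0.02 and 0.06. Those of Htr1b, the leading striatal receptor, lay between -0.17 and 0.20 there. Those of Htr2a, the leading prefrontal receptor, lay between -0.13 and 0.16 in the prefrontal cortex. These are ranges of estimates from comparisons that share groups, and the 95% intervals are wider.

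**Figure D3:**
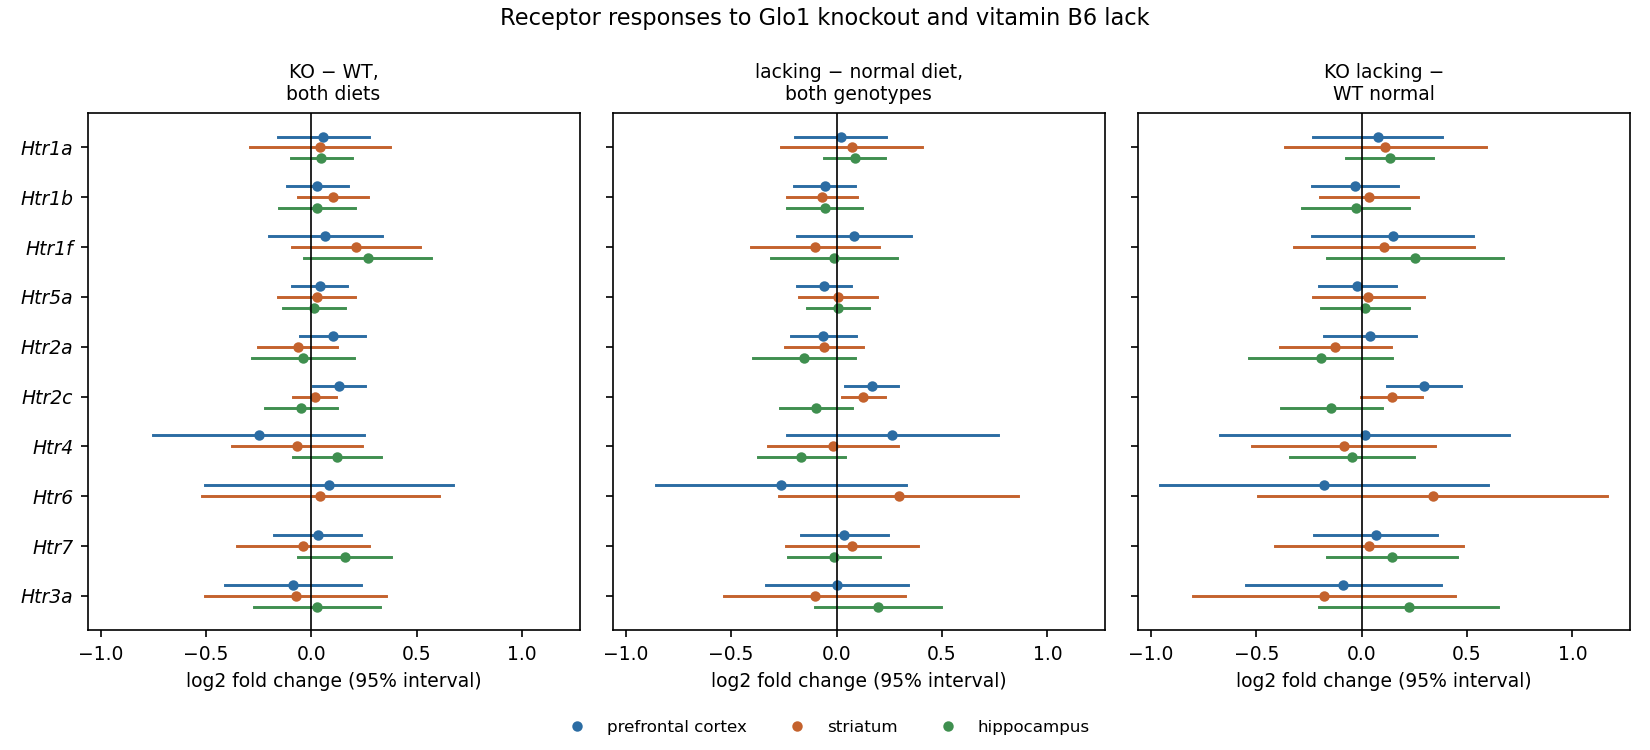
Log2 fold change of each receptor for KO against WT over both diets, for the lacking against the normal diet over both genotypes, and for lacking-diet KO against normal-diet WT mice; points are edgeR estimates and lines their 95% intervals, by region (Htr6 was not tested in the hippocampus). The interval of Htr2c in the prefrontal cortex lies above 0 in each panel, from 0.12 to 0.47 in the right one, and most other intervals span 0.

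Htr2c in the prefrontal cortex gave 5 of the 9 low unadjusted p-values. Normal-diet WT mice had 38.6, 39.3, 39.6, 40.3 and 41.9 CPM. Lacking-diet WT mice had 38.4, 41.5, 42.8, 45.1 and 45.9 CPM, and normal-diet KO mice 38.5, 41.0, 41.4, 43.9 and 45.8 CPM. Lacking-diet KO mice had 42.8, 43.9, 51.1, 52.7 and 57.9 CPM. The last group lay wholly above the first and overlapped with both others. Between the last group and the first, 1713 of 13223 genes had an unadjusted p under 0.05 by edgeR. How many genes separated these groups without overlap was not counted.

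The log2 difference of lacking-diet KO from normal-diet WT mice was 0.30 (SE 0.09, 95% interval 0.12 to 0.47, 1.23-fold, edgeR adjusted p = 0.121), which did not pass. The adjusted p ran from 0.0595 (DESeq2) to 0.161 over the other settings and from 0.0555 to 0.336 when 1 mouse was left out, and the estimate from 0.24 (without mouse 339) to 0.35 (without mouse 244). The diet effect in KO mice was 0.23 (adjusted p = 0.911) and that in WT mice 0.10 (adjusted p = 1.00), with an interaction of 0.12 (95% interval -0.12 to 0.37). KO against WT gave 0.19 on the lacking diet (adjusted p = 0.362) and 0.07 on the normal diet, where it also did not pass. These comparisons share groups, so they give no independent support to each other.

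Other measures also differed between the groups at the ends of this comparison. In the prefrontal cortex 5 astrocyte markers summed to 1577 to 1914 CPM in lacking-diet KO mice and to 1999 to 2477 CPM in normal-diet WT mice, without overlap, and 5 microglia markers to 179 to 227 against 218 to 257 CPM, with overlap. The 5 oligodendrocyte markers summed to 1291 to 2153 against 1518 to 2063 CPM. The 7 striatal markers summed to 142 to 173 against 154 to 175 CPM, the 7 cortical markers to 853 to 924 against 871 to 950 CPM, and the choroid plexus markers to 5.60 to 8.95 against 5.30 to 7.96 CPM. The mean RNA integrity number was 8.54 against 8.26, and with that number as a covariate the Htr2c difference was 0.27 (adjusted p = 0.128). The part of the astrocyte and microglia markers in the Htr2c difference was not tested, and batch cannot be told apart from genotype.

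**Figure D4:**
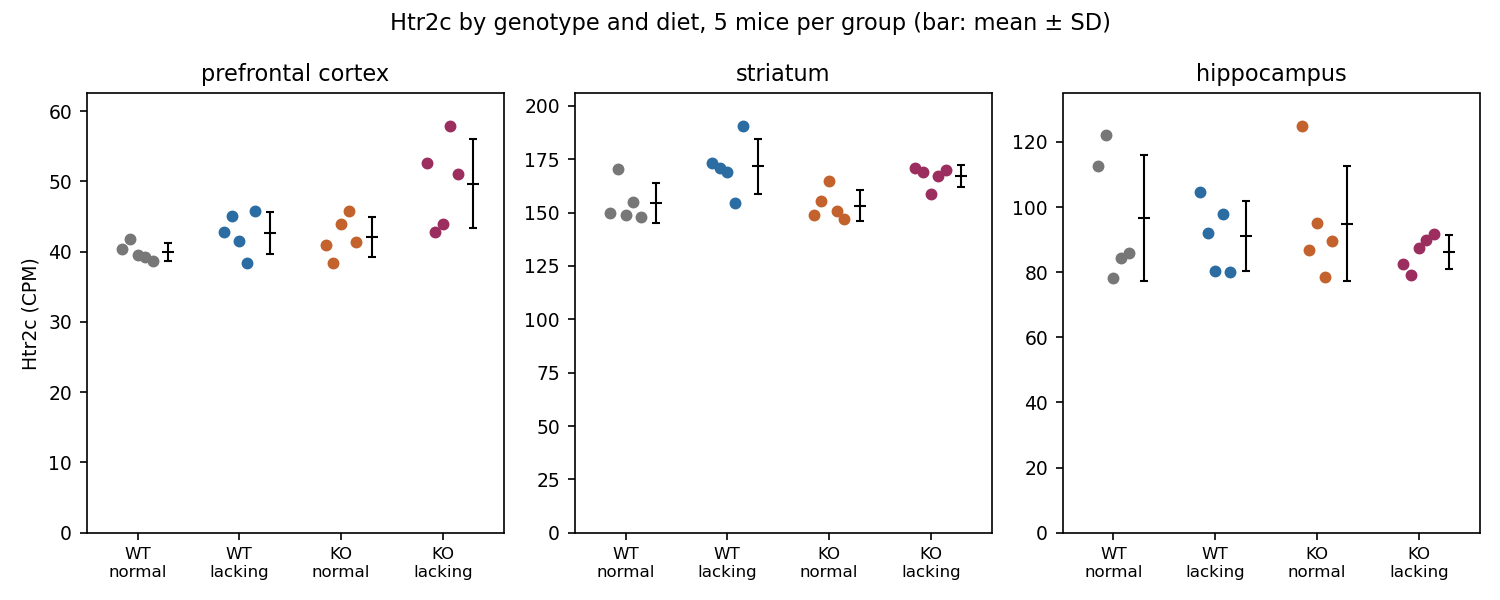
Htr2c in CPM by genotype and diet in each region (linear axes from 0, scaled per region); points are mice, 5 per group, and the bar beside them is the mean ± SD. In the prefrontal cortex the group of lacking-diet KO mice lies at 42.8 to 57.9 CPM, above the 38.6 to 41.9 CPM of normal-diet WT mice. This difference did not pass the test (edgeR adjusted p = 0.121), and how many of all genes separated these groups was not counted.

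In the striatum Htr2c had means of 154 ± 9.44 CPM (SD, n = 5) in normal-diet WT and 153 ± 7.08 in normal-diet KO mice. On the lacking diet the means were 172 ± 12.9 in WT and 167 ± 5.04 in KO mice. The mean was higher on the lacking diet in both genotypes, with ranges that overlapped. The log2 difference over both genotypes was 0.13 (95% interval 0.02 to 0.23, edgeR adjusted p = 1.00) in the striatum and 0.17 (0.04 to 0.29, adjusted p = 1.00) in the prefrontal cortex, and neither passed.

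In the hippocampus the corresponding difference was -0.10 (95% interval -0.27 to 0.07) in all libraries and turned to 0.05 (SE 0.07) without the 7 libraries high in choroid plexus markers; neither passed the test. Those 7 libraries had 82.5 to 125 CPM of Htr2c (median 105), against 78.2 to 92.2 CPM (median 85.9) in the other 13. The summed markers averaged 159 CPM in lacking-diet KO mice and 487 to 520 CPM in the other groups. The difference of the diet effect between prefrontal cortex and hippocampus was 0.25 (SE 0.10, edgeR adjusted p = 1.00) in all libraries and 0.11 without those 7, and between striatum and hippocampus 0.21 and 0.07. Neither passed the test, and 0% of all genes did for any difference of the diet effect between regions. For differences of the genotype effect between regions 0% of genes were called between prefrontal cortex and striatum, 0.00718% between prefrontal cortex and hippocampus and 0% between striatum and hippocampus, with 0 receptors among them.

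**Figure D5:**
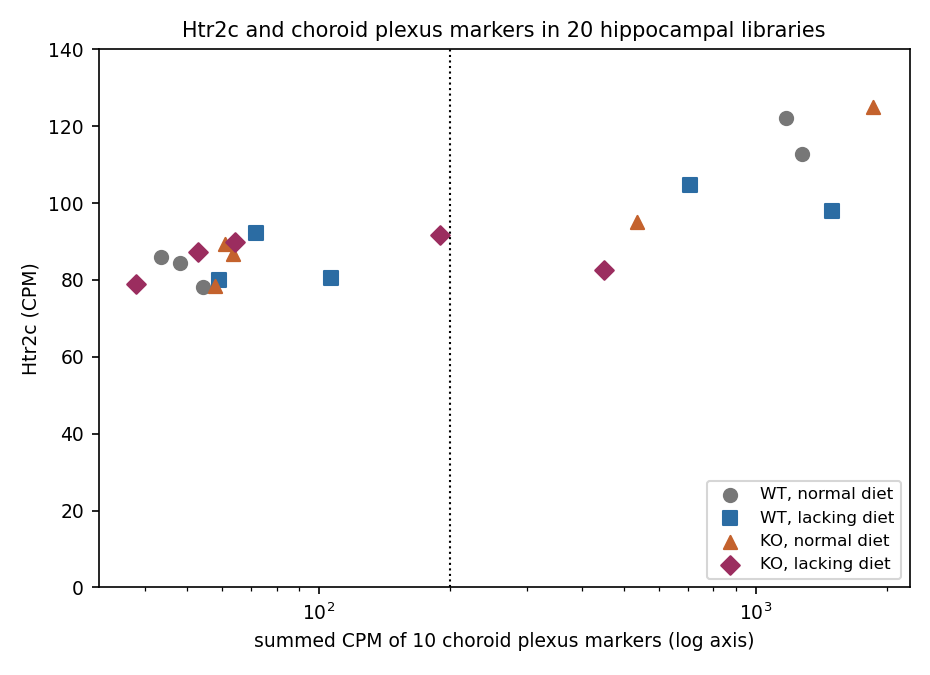
Htr2c in CPM (linear axis from 0) against the summed CPM of 10 choroid plexus markers (log axis) in the 20 hippocampal libraries, by group; the dotted line marks 200 CPM. The 7 libraries right of the line reach 125 CPM of Htr2c, while the 13 left of it stay between 78.2 and 92.2 CPM.

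Htr1f in the hippocampus and Htr6 in the prefrontal cortex gave the remaining low unadjusted p-values outside Htr2c. Hippocampal Htr1f measured 2.64, 3.84, 3.93, 4.13 and 6.92 CPM in lacking-diet WT mice and 5.53, 5.86, 6.07, 6.96 and 7.35 CPM in lacking-diet KO mice. On the normal diet it measured 3.87, 4.39, 6.02, 6.28 and 6.45 CPM in WT and 4.40, 5.28, 5.53, 5.62 and 5.64 CPM in KO mice. By median the lacking-diet KO mice were the highest group and the WT mice on that diet the lowest, with 1 WT mouse inside the KO range. KO against WT on the lacking diet gave a log2 difference of 0.59 (SE 0.20, edgeR adjusted p = 0.740), and the interaction gave 0.65 (SE 0.29, adjusted p = 0.516); neither passed.

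Prefrontal Htr6 measured 0.528 to 1.47 CPM in normal-diet WT mice and 0.315 to 0.871 CPM in lacking-diet WT mice. In KO mice it measured 0.230 to 1.57 CPM on the normal and 0.612 to 1.47 CPM on the lacking diet. Its interaction of genotype and diet was 1.19 (95% interval 0.01 to 2.37, edgeR adjusted p = 1.00), from 3 to 17 counts a library. All 4 groups overlapped. Prefrontal Htr4 was as uncertain: 0.495 to 1.65 CPM in normal-diet KO mice and 0.918 to 2.16 CPM in lacking-diet KO mice, with a log2 difference of 0.62 (SE 0.35, adjusted p = 0.980).

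Other genes of serotonin signalling were taken from lists of 16 genes of synthesis, transport and breakdown, 21 G proteins and effectors and 9 adaptors and editing enzymes. Between regions, the lists with their background above gave, for prefrontal cortex against striatum, 4 higher and 7 lower of 13 synthesis and transport genes tested, 13 higher and 6 lower of 21 G proteins and effectors and 7 higher and 0 lower of 9 adaptors. Prefrontal cortex against hippocampus gave 2 higher and 7 lower, 10 and 6, and 4 and 3. Striatum against hippocampus gave 2 and 4, 6 and 14, and 2 and 6. The median log2 fold change of the G proteins and effectors was 0.62, 0.09 and -0.29 in these comparisons, beside -0.01, -0.01 and 0.01 over all genes.

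Gnal and Adcy5, the stimulatory G protein and the adenylyl cyclase of striatal neurons, were 8.30-fold and 12.6-fold higher in striatum than in hippocampus (adjusted p = 1.223e-60 and 1.017e-55 by edgeR). They also exceeded the prefrontal cortex, 5.18-fold and 10.1-fold. Adcy1, a calmodulin-stimulated cyclase, went the other way, 3.50-fold higher in the hippocampus and 3.41-fold higher in the prefrontal cortex than in the striatum. Between prefrontal cortex and hippocampus the leading list genes were Plcb4, a phospholipase C beta downstream of Gq (3.57-fold higher in the prefrontal cortex), Gnal (1.60-fold higher there) and Slc29a4, a low-affinity monoamine transporter (5.51-fold higher in the hippocampus). Tph2, the serotonin-making hydroxylase of raphe neurons, had 0 to 32 counts and Slc6a4, the serotonin transporter, 0 to 5 counts a library.

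For genotype and diet, 10, 12 and 11 synthesis and transport genes were tested in prefrontal cortex, striatum and hippocampus, with all 21 G proteins and effectors and all 9 adaptors in each. In the prefrontal cortex and hippocampus 0 of them were called, and in the striatum 1 was, for KO against WT over both diets beside 0.203% of all genes. It was Slc22a3, a low-affinity transporter that takes up serotonin and other monoamines. Striatal Slc22a3 measured 8.19 to 18.4 CPM in the 10 WT mice (median 12.1) and 18.6 to 28.1 CPM in the 10 KO mice (median 22.5), so that the genotypes did not overlap. KO exceeded WT by 0.93 on the log2 scale over both diets (SE 0.10, 1.91-fold, edgeR adjusted p = 9.773e-06), by 0.97 on the normal diet (adjusted p = 0.00368) and by 0.89 on the lacking diet (adjusted p = 0.00433). With the RNA integrity number as a covariate the call on the lacking diet was lost (0.85, edgeR adjusted p = 0.116). Lacking-diet KO mice exceeded normal-diet WT mice by 1.16 (adjusted p = 0.000223). Slc22a3 (12418960 to 12507704) and Glo1 (30584936 to 30626871) both lie on chromosome 17 in GENCODE M21, and none of the 10 receptors does. The part of that shared chromosome, or of the batch, in the Slc22a3 difference was not tested.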

How the data were processed

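The authors deposited whole-number counts per gene and RPKM values for 60 libraries; per the submitters' processing notes, the tools and build were STAR 2.7.1a, HTSeq 0.9.1 and mm10. For the 18514 genes with a count, each deposited RPKM equalled the count divided by a gene length and the library total. All value columns matched a sample by name. CPM is the count per 1000000 of the library total. Counts were fitted with edgeR 4.0.16 in R 4.3.3 (TMM factors, filterByExpr with a minimum count of 10 and total of 15, quasi-likelihood F-tests, two-sided, Benjamini-Hochberg threshold 0.05): once over all 60 libraries with 12 group means, and once per region. Standard errors came from the F statistics. The edgeR steps were tested on simulated counts of independent libraries, with changes placed only in genes of higher counts. That test does not cover receptors of few counts, libraries that share a mouse or changes as small as that of Htr2c. Alternatives were DESeq2 1.42.0, limma 3.58.1 on log2(RPKM + 1) and log2(RPKM + 0.1), no TMM factors, no filter, a mean CPM of at least 1, RNA integrity as a covariate, the mouse as a block, fewer groups and leaving out each mouse. Leaving out 7 hippocampal libraries and rescaling RPKM to GENCODE M21 lengths were chosen after seeing the data.

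The receptors, gene lists and tests were chosen with earlier results of these data known. All 10 receptors are named; of the lists, the 3 genes of smallest p per region comparison and every gene called for genotype or diet are named, and like genes are the 3 with the highest r over libraries (2 after group means were taken out). Htr1d, Htr5b, Htr2b, Htr3b, Tph2 and Slc6a4 are named outside this rule, chosen after their values were seen. Same-numbered libraries come from the same mouse in 3 regions, which sets the pairing; the mean correlation of their deviations from group means was 0.03, 0.04 and 0.07 for the 3 pairs of regions, against -0.01, -0.01 and -0.02 for other mice of the group. Within a region the groups are different mice. There, p-values measure the spread between mice. The fit of all 60 libraries took the 3 libraries of a mouse as separate, so its p-values measure the spread between libraries of a group. Only the alternative with the mouse as a block used the pairing. Floors cover counting error only.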

Additional observations from a re-analysis of the deposited data

Results flagged for a closer look

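In 120 groups of 5 libraries (10 receptors, 12 groups), 5 had 1 library far from the other 4, where chance at 1 in 20 gives 6. Htr5a, the Gi/o-coupled receptor highest in the prefrontal cortex, stood at 36.554 CPM in prefrontal mouse 325 (KO, lacking diet), the other 4 mice lying between 28.0 and 29.2 CPM. Htr5a in the striatum of mouse 259 (WT, lacking diet) stood at 14.768 CPM, against 10.8 to 11.8 CPM. Htr6, a receptor of few counts, stood at 2.3132 CPM in the striatum of mouse 241 (WT, lacking diet), against 0.563 to 1.02 CPM, and at 1.5832 CPM in the striatum of mouse 339 (KO, lacking diet), against 0.597 to 0.857 CPM. Htr1f in the hippocampus of mouse 267 (KO, normal diet) stood at 4.4043 CPM, against 5.28 to 5.64 CPM, and this was the library with the highest choroid plexus marker sum.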

How the results depend on the processing

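The number of receptors called kept within 1.5 times its value in every alternative run for every comparison: 8 to 10 between regions and 0 for genotype and diet. With only WT mice on the normal diet, Htr6 did not pass the low-count filter and 8 of the 9 receptors tested were called in each pair of regions. No receptor changed direction where it was called. The diet difference of hippocampal Htr2c, not called, turned from -0.10 to 0.048855 without the 7 hippocampal libraries. Calls lost were Htr1f between prefrontal cortex and striatum (0.47, adjusted p = 0.0546) and Htr3a between prefrontal cortex and hippocampus (-0.49, adjusted p = 0.118), both in WT mice on the normal diet alone. For Htr1f between striatum and hippocampus they were lost in those mice alone (0.30), in limma on log2(RPKM + 1) (0.14) and log2(RPKM + 0.1) (0.20), without TMM factors (0.21), without the 7 hippocampal libraries (0.23) and without mouse 273 (0.22). With the mouse as a replicate block the receptors called were 9, 10 and 10, as without it, and the block changed no call. With a mean CPM of at least 1 Htr6 was not tested either, and 9 of 9 were called.

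Counts over all genes moved more. Region comparisons of WT mice on the normal diet alone called 5986, 4628 and 5455 genes, against 9743, 8260 and 9256. In the prefrontal cortex, KO against WT over both diets called 89 genes, 46 without mouse 381 and 390 without mouse 226, while DESeq2 gave 230 and the integrity covariate 189. On the lacking diet the count was 31, 15 without mouse 259 and 217 without mouse 226, and on the normal diet 16, 8 without mouse 272. Lacking-diet KO against normal-diet WT mice called 37, from 20 without mouse 272 to 142 with DESeq2, and 111 in a fit of only these groups. In the striatum the counts were 8 on the normal diet (5 to 15 over the alternatives), 17 on the lacking diet (3 with the integrity covariate, 30 with DESeq2) and 11 between the end groups (7 to 24). In the hippocampus they were 4 (2 to 8), 9 (3 without the 7 libraries, 19 with DESeq2) and 2 (up to 15), and 22 over both diets (6 without the 7 libraries, 41 with the integrity covariate). Differences of the genotype effect between regions called at most 5. Depth limits Htr6 everywhere and Htr4 in the prefrontal cortex, whose counts reach down to 0 and 5.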
